A study of Mus musculus with 675 samples.

Results

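The adventitial fibroblasts of the mouse aorta were taken from 675 single-cell libraries, and were chosen by the measured counts of 9 genes. A cell was kept when at least 3 of 7 fibroblast genes (Pdgfra, Dpt, Lum, Dcn, Pi16, Serpinf1 and Clec3b) reached 100 CPM (counts scaled to the total of the cell), with Myh11 under 1000 CPM and Rgs5 under 500 CPM. Myh11 is the myosin heavy chain of smooth muscle, and Rgs5 marks pericytes and some smooth muscle cells, so both conditions remove mural cells. Of the 675 cells, 67 met the rule, or 9.93% (exact 95% interval for counting error only, 7.78 to 12.4). They were split at 100 CPM of Pi16 into 46 Pi16-high cells and 21 other fibroblasts.

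The study sorted single cells from the aorta of male C57BL/6 mice aged 10 weeks into multi-well plates and made a Smart-seq2 library from each, a full-length method without molecular identifiers. No mouse carried a transgene or treatment in the labels, although the dissociation protocol mentions heart tissue in places. The cells came from 2 pools, each of 2 mice, which were processed on separate plates. Mice and plate cannot be told apart, and a pool (n = 2) is the replicate in every test. Pool A held 39 of the fibroblasts (30 Pi16-high and 9 other) and pool B held 28 (16 Pi16-high and 12 other). The 563 smooth muscle cells, found in both pools, had at least 1000 CPM of Myh11 and fewer than 3 of the fibroblast genes.

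Adventitial fibroblasts lie in the outer coat of the artery, where they make and maintain the collagen and elastic fibres around the muscle layer and exchange signals with nerves, small vessels and immune cells. PI16 is a secreted or membrane-anchored protein of the CAP family. In mouse tissues generally, fibroblasts that express it sit in the adventitia of larger vessels and in fascia, carry stem-like surface markers such as Sca-1 (Ly6a) and Cd34, and are often described as a reservoir for other fibroblast states.

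The 7 rule genes chose the cells, so their levels describe the class and are not a result. All 7 reached 100 CPM in 23 cells, 6 in 20, 5 in 16, 4 in 6 and 3 in 2, and no cell depended on Pi16 to reach 3. The collagen-binding proteoglycan Dcn summed over Pi16-high cells to 6461 CPM for pool A and 6254 CPM for pool B, against 7627 and 7387 CPM in the other fibroblasts. Lum, a related proteoglycan, summed to 1501 and 1303 CPM in Pi16-high cells, against 2361 and 2233 CPM in the others. Serpinf1, which encodes the anti-angiogenic factor PEDF, ran the other way, at 3128 and 3124 CPM against 1976 and 2019 CPM. The plasminogen-binding protein Clec3b stood at 669 and 330 CPM in Pi16-high cells and at 240 and 107.997 CPM in the others. Dpt and Pdgfra overlapped: Dpt had 920 and 868 CPM against 1650 and 426 CPM, and Pdgfra, a growth factor receptor found on most fibroblasts, had 593 and 604 CPM against 796 and 512 CPM.

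Pi16 itself summed to 2239 and 2256 CPM in Pi16-high cells, against 9.96 and 9.19 CPM in the other fibroblasts. The threshold fell in a gap, since the nearest cells stood at 54.6 CPM below it and 130 CPM above it, and 9 cells had no Pi16 count. The highest mural values inside the class were 549 CPM of Myh11 and 125.3 CPM of Rgs5. Another 6 cells had 3 or more fibroblast genes but exceeded the Myh11 limit, at 2024 to 4114 CPM. A single cell below both mural limits held exactly 2 of the fibroblast genes, with 1322 CPM of Lum, 2100 CPM of Dcn and 3227 CPM of the endothelial gene Pecam1, and was left out.

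**Figure D1:**
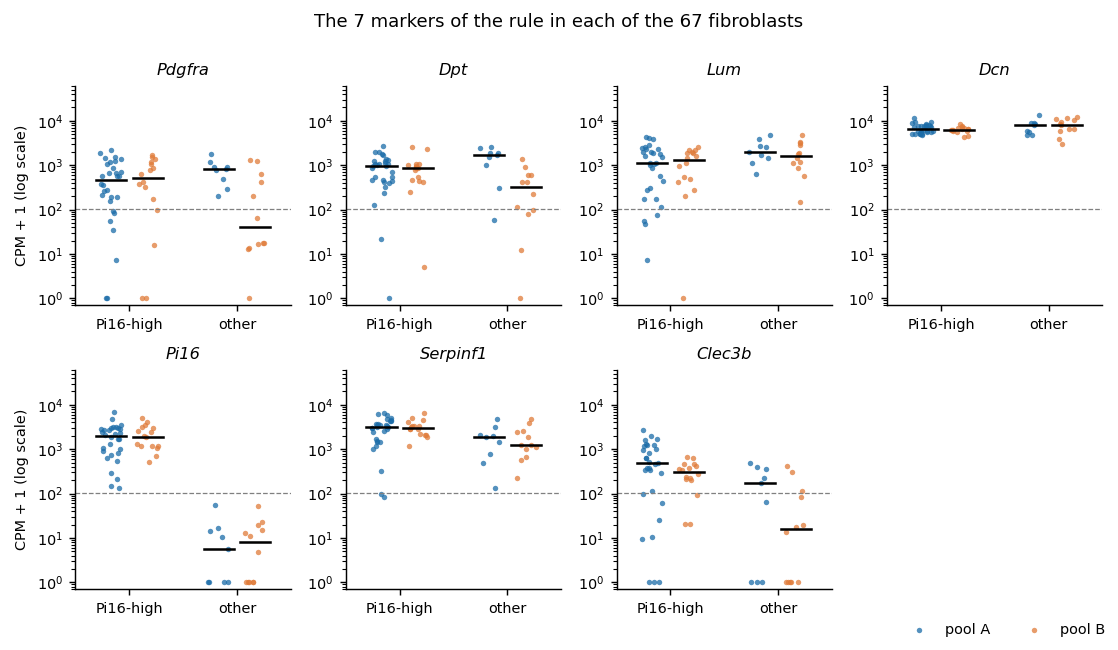
CPM + 1 on a log scale of the 7 genes of the rule in each of the 67 fibroblasts (points), Pi16-high cells left of the other fibroblasts, pools marked by colour, bars at the median of each pool and the 100 CPM limit dashed. Pi16 leaves a gap between 54.6 and 130 CPM, while Dcn exceeds 100 CPM in every cell of both groups.

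The label was checked against markers of other cell types, of which some were at 0 and some were not. Of the 7 macrophage markers, Ptprc, Adgre1 and Mrc1 had no count in any of the 67 cells, Csf1r reached 100 CPM in 2 Pi16-high cells and Lyz2 in 1 other fibroblast, and the sum of the list had a maximum of 148.3 CPM in Pi16-high cells and 2000 CPM in the others. The lymphocyte genes Cd3e and Cd79a were at 0, with list maxima of 42.3 and 16.1 CPM. Of the Schwann cell and neuron list, Sox10 was at 0, S100b reached 100 CPM in 7 Pi16-high cells and 1 other, and the maxima were 264.6 and 345.8 CPM. Adipoq, which defines adipocytes, was at 0, while the lipase Lpl of the same list reached 100 CPM in 21 Pi16-high cells and 8 others, with maxima of 2141 and 3658 CPM. The mesothelial genes Msln, Upk3b, Krt19 and Lrrn4 were at 0, but Wt1 reached 100 CPM in 1 Pi16-high cell, with maxima of 703 and 9.70 CPM. Of the 5 heart muscle markers only the atrial Myl7 was at 0, and the other 4 had counts. Tnnt2 reached 100 CPM in 2 other fibroblasts and no Pi16-high cell, with 45.2 CPM over the other fibroblasts of pool B. The maxima of the list's sum were 109.4 and 211.4 CPM. The median of these sums over cells was 0 in both groups, other than 3.94 CPM for heart muscle in the other fibroblasts and 60.6 and 16.6 CPM for the adipocyte list.

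Smooth muscle markers were common: 37 of 46 Pi16-high cells and 17 of 21 others had at least 3 of the 8 at 100 CPM. Their sum had a median of 2048 CPM in Pi16-high cells (577 to 5665) and 3312 CPM in the other fibroblasts (1077 to 11385), against 20328 CPM in smooth muscle cells (5186 to 45402). Of the 7 endothelial markers, the sum had a median of 27.4 CPM in Pi16-high cells and 38.8 CPM in the others. Its maxima were 880 and 1315.5 CPM. Pecam1 reached 100 CPM in 7 Pi16-high cells and 3 others, and Flt1 in 2 and 3. No cell of either group had 3 of these markers at that level. The platelet genes Pf4 or Ppbp reached 100 CPM in 4 of 46 Pi16-high cells and 6 of 21 other fibroblasts, all 10 in pool A. Pi16-high cells were deeper, with a median of 160525 counts against 98137 in the other fibroblasts and 303442 in smooth muscle cells. The part that this depth, the contractile RNA and the platelet RNA play in the comparisons was not tested, except where values without such cells are given.

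Pi16-high cells made up 68.7% of the fibroblasts (exact 95% interval 56.2 to 79.4), which was 76.9% in pool A (60.7 to 88.9) and 57.1% in pool B (37.2 to 75.5). These intervals cover counting error over cells, the share is one of sorted cells, and the difference between pools was not tested.

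Levels were compared between genes as CPM per kilobase of annotated exon, so that long and short genes stand on 1 scale. The ranking was limited to protein-coding genes that are neither mitochondrial nor ribosomal. In it Mgp, an inhibitor of calcification that is abundant in the vessel wall, was highest, at 9911 ± 2337 TPM (SD, n = 2 pools) over the 67 cells. Cystatin C (Cst3, 8828 ± 1051), gelsolin (Gsn, 8012 ± 140), Igfbp7 (8007 ± 1222) and B2m (7695 ± 1242), the light chain of MHC class I, followed in the same unit and did not differ beyond their spread between pools. Sparc, a collagen-binding matricellular protein, stood at 5808 ± 290 TPM, and Serping1, the inhibitor of the first complement component, at 5105 ± 895. Ly6a (4140 ± 1101) and the rule genes Serpinf1 (4229 ± 242.9) and Dcn (4013 ± 118.9) were also among the 20 highest. Ly6a shares sequence with its paralog Ly6c1, so the split of reads between them is uncertain.

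Among collagens, Col1a1 had 2690 ± 200 TPM, Col1a2 1460 ± 102.3 and Col3a1 1297 ± 281.7. Each of them reached 100 CPM in all 67 cells. Biglycan (Bgn), a collagen- and TGF-beta-binding proteoglycan, had 3300 ± 664 TPM. The elastic fibre proteins ran from Mfap4 at 5147 ± 632 TPM to Fbln1 at 1682 ± 53 and elastin (Eln) at 1108 ± 125.4. The inhibitor Timp2 stood at 1871 ± 201.99 TPM and its target, the gelatinase Mmp2, at 1301 ± 378. Gas6, a ligand, had 1148 ± 66 TPM, and its receptor tyrosine kinase Axl had 460 ± 131.2. The insulin-like growth factor Igf1 had 291.1 ± 12 TPM, while Igfbp4, which binds it, had 2582 ± 27. The eosinophil-attracting chemokine Ccl11 had 856 ± 128.4 TPM from 16 cells at 100 CPM. The alarmin Il33 had 341.6 ± 0.70 TPM from 23 cells, so both came from a minority of the fibroblasts.

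Genes that reached 100 CPM in 20% to 80% of the fibroblasts were ranked by their SD on the log2(CPM + 10) scale over the 67 cells. The bone morphogenetic protein relative Gdf10 came first, with 37 cells at 100 CPM, a median of 177.02 CPM and a maximum of 6995 CPM. Igfbp5 followed, with 44 cells, a median of 561 CPM and a maximum of 12579 CPM. Complement C3 reached 100 CPM in 41 cells, the matrix protein Tgfbi in 42, the methyltransferase Inmt in 25, the keratan sulfate proteoglycan Fmod in 32 and the secreted glutathione peroxidase Gpx3 in 29. Pi16 stood eighth by this measure. The frizzled-related Wnt antagonist Sfrp2, whose gene overlaps Gm26771, reached 9227 CPM in 1 cell but had a median of 153.8 CPM. Both pools showed these genes on and off, for example Gdf10 at 100 CPM in 23 pool A and 14 pool B cells, and Gpx3 in 14 and 15. Gdf10 was at 100 CPM in 27 of 46 Pi16-high cells and 10 of 21 others, C3 in 29 and 12, and Igfbp5 in 34 and 10.

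**Figure D2:**
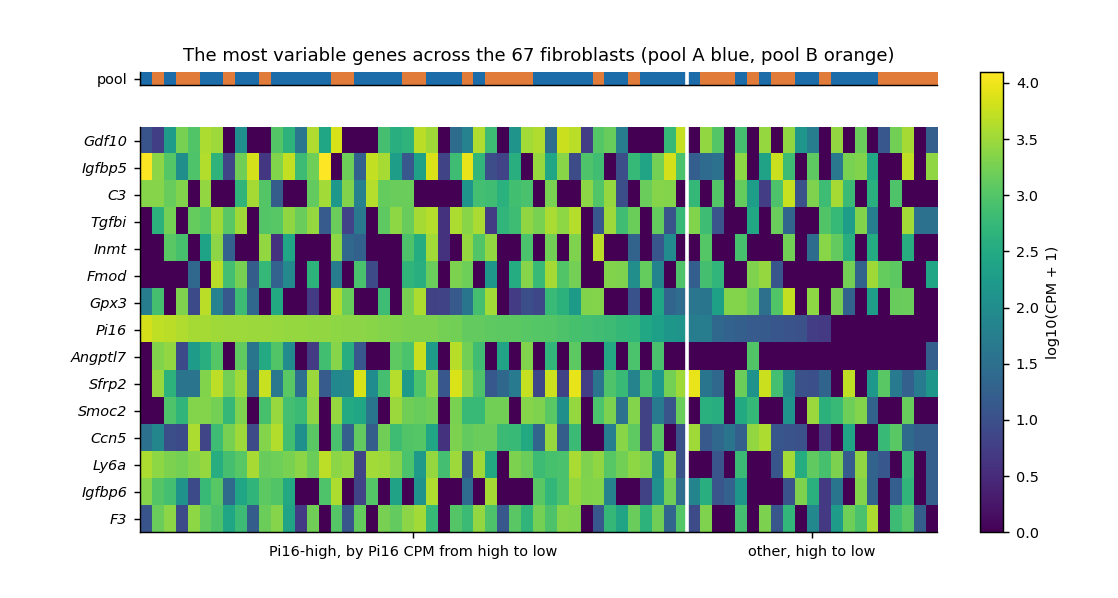
log10(CPM + 1), as colour, of the 15 most variable genes (rows) in the 67 fibroblasts (columns), Pi16-high cells left of the other fibroblasts, each ordered by Pi16 and with the pool in the top strip. Gdf10 and C3 are on in part of both groups (37 and 41 cells at 100 CPM), while Angptl7 is at 100 CPM in 25 Pi16-high cells and 1 other.

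The genes most like Pi16 were ranked by Spearman's correlation of CPM over the 67 cells, which share pools and depth, for 7098 genes (median correlation 0.0239). Mfap5, a microfibril protein that binds fibrillin, was first at 0.646, with 0.639 within pool A and 0.620 within pool B. Pcolce2, an enhancer of procollagen C-proteinase, followed at 0.621 (0.542 and 0.647), then Ackr3, a scavenging receptor for Cxcl12, at 0.561 (0.372 and 0.719), and the secreted angiopoietin-like protein Angptl7 at 0.532 (0.546 and 0.536). The scaffold protein Ahnak (0.508), thrombomodulin (Thbd, 0.5004), Mif4gd (0.497) and the rule gene Clec3b (0.493) completed the first 8. Pi16 correlated with the counts per cell at 0.398, Ahnak and Thbd did so at 0.438 and 0.442, Pcolce2 at 0.378 and Clec3b at 0.352, while Mif4gd stood at 0.235 and Mfap5, Ackr3 and Angptl7 between 0.154 and 0.189. The most negative correlations were those of the copper-binding ferroxidase Cp (−0.565), Tmem176b (−0.502), Mgp (−0.488), Stk3 (−0.428) and the rule gene Lum (−0.413). Cp and Mgp also correlated with the counts per cell, at −0.449 and −0.431.

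The bases before the RefSeq start are shown for Pi16 and for the nearest of these genes with an entry in the RefSeq promoter table, since the genes move together over cells. Each window is the 250 bases before the start in GRCm38.p6 on the plus strand, and capitals mark matches of the motifs searched on both strands. The windows are chr17:29318632-29318881 for Pi16, chr9:95637378-95637627 for Pcolce2 and chr1:90203730-90203979 for Ackr3.
Pi16: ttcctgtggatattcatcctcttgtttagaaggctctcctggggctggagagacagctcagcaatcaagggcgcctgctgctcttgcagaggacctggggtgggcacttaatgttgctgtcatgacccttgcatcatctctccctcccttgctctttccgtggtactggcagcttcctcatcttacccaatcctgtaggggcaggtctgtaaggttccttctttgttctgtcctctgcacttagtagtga
Pcolce2: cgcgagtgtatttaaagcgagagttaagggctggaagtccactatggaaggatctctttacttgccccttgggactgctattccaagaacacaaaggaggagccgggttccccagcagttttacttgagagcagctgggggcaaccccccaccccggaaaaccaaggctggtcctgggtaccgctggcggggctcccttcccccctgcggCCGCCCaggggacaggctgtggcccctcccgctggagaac
Ackr3: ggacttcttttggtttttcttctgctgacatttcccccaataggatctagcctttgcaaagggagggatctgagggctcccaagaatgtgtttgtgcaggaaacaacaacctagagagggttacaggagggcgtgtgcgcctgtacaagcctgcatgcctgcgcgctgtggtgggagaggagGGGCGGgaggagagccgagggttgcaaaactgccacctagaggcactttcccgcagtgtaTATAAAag
The motifs were GGGCGG (a GC box, in 32.8% of 32841 windows of this length), TATAAA (12.4%), GGAATG (a TEAD-type motif, 12.6%), TGANTCA (an AP-1-type motif, 6.75%) and the CArG box (1.47%). The Pcolce2 window held 1 GC box on the reverse strand, the Ackr3 window 1 GC box and 1 TATAAA, and the Pi16 window none of these letters. In the GENCODE annotation the Pi16 gene starts further upstream, so its window lies within that gene.

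Pi16-high cells were then compared with the other fibroblasts on counts summed per pool and class, with pool as a block, to ask what goes with Pi16. Outside the 9 genes of the rule, 1 of 10103 genes passed at an adjusted p under 0.05, or 0.0099% (edgeR's quasi-likelihood test), and it was lower. No gene was higher by that test; DESeq2 on the same sums called 25 higher and 49 lower. At an unadjusted p under 0.05, 2.82% of the genes were higher and 1.6% lower. Both pool sums of the Pi16-high cells lay above both sums of the others for 2191 genes (21.7%) and below both for 1380 (13.7%), and the median log2 fold change over all genes was 0.18. The summed counts ran between 1302328 and 5354368 per pool and class, and the Pi16-low sums rest on 9 and 12 cells. The cells were divided by a gene measured in the same libraries, so genes that go with Pi16 in these cells can differ through that choice, and the values describe these classes.

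The gene that passed was Igfbp3 (chr11:7206086-7213923 in GRCm38), which encodes a carrier of insulin-like growth factors. It had 0.373 and 1.85 CPM in Pi16-high cells, against 324.99 and 323.99 CPM in the other fibroblasts (log2 fold change −8.45 ± 0.98, adjusted p = 0.00199). The sums of the others rest on 2 of 21 cells, 1 in each pool, with 1934 and 4691 CPM, while the highest Pi16-high cell had 48.6 CPM. Without the cells that held platelet genes its pool A value in the other fibroblasts was 0 and it was no longer tested. Among cells with at least 100000 counts its pool B value in the other fibroblasts was 1.58 CPM, and it was not tested there either.

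Of 22 genes listed for Pi16-type adventitial fibroblasts, 21 were tested and none passed. Their median log2 fold change was 1.38, with 19 positive, 12 at an unadjusted p under 0.05 (all higher) and 16 with both pool sums above both sums of the other fibroblasts. Over all genes tested the median was 0.18, with 2.82% higher at that p and 21.7% with both pool sums above. The cells were split on Pi16 and the list was chosen with earlier results of these data known. These counts therefore describe the classes and are not independent support. The microfibril gene Mfap5 had 1501 and 1687 CPM in Pi16-high cells, against 350 and 622 CPM in the other fibroblasts (log2 fold change 1.72 ± 0.32, adjusted p = 0.193), and reached 100 CPM in 45 of 46 and 15 of 21 cells. Sca-1 (Ly6a), a surface marker of progenitor-like fibroblasts, had 1868 and 1482 CPM against 790 and 525 CPM (1.32 ± 0.30, adjusted p = 0.454), and was at 100 CPM in 41 of 46 Pi16-high cells and 8 of 21 others. In both genes the pool sums of the groups did not overlap.

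Surface receptors of the same list ran likewise. Ackr3 had 598 and 701 CPM in Pi16-high cells, against 342.6 and 33.7 CPM in the others (2.50 ± 0.75, adjusted p = 1), at 100 CPM in 39 and 6 cells. Leaving out the cells holding platelet genes left 3 other fibroblasts in pool A, and Ackr3 passed by edgeR's test (2.84 ± 0.68, adjusted p = 0.0129). It did not pass among cells with at least 100000 counts, or without cells that had at least 3 contractile genes at 1000 CPM (adjusted p = 0.558). Cd55, which protects cells from complement, had 183.6 and 163.5 CPM against 52.9 and 36.8 CPM (1.92 ± 0.85). The protein C receptor Procr had 68.96 and 106.8 CPM against 0.766 and 5.36 CPM, at 100 CPM in 5 Pi16-high cells and no other. Cd34 differed less, at 1341 and 940 CPM against 717 and 911 CPM (0.42 ± 0.33). The peptidase Dpp4, a marker of the same fibroblasts in other mouse tissues, had 22.4 and 39.3 CPM from 4 Pi16-high cells at 100 CPM, and no count in the other fibroblasts.

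Secreted factors of the list also had pool sums that did not overlap. The guidance molecule Sema3c had 334.9 and 146.1 CPM in Pi16-high cells, against 36.8 and 76.6 CPM in the others (2.00 ± 0.80). Igfbp6, a carrier with a preference for IGF-II, had 702 and 820 CPM against 426 and 113.4 CPM (1.73 ± 0.52). Fibronectin (Fn1) had 706 and 562 CPM against 316.6 and 364.6 CPM (0.84 ± 0.40). The members with overlapping pool sums were Limch1, Emilin2, Tppp3, Uchl1 and Smpd3.

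Beyond that list, the enhancer of collagen processing Pcolce2 had 878 and 659 CPM in Pi16-high cells, against 189.3 and 59.7 CPM in the other fibroblasts (log2 fold change 2.78 ± 0.48, adjusted p = 0.115). It reached 100 CPM in 38 of 46 and 5 of 21 cells. Angptl7 had 628 and 993 CPM against 0 and 104.9 CPM (5.53 ± 1.14, adjusted p = 0.316), at 100 CPM in 25 cells and 1 cell; it lies inside Mtor on the other strand, and the use of strand in counting is not given. The cartilage matrix protein Comp had 439 and 163.5 CPM against 22.99 and 16.1 CPM (3.75 ± 0.75, adjusted p = 0.269), but only 9 Pi16-high cells reached 100 CPM. The sortilin-family receptor Sorcs2 had 70.6 and 227.7 CPM against 0 and 2.30 CPM, with 12 Pi16-high cells and no other at 100 CPM. Connective tissue growth factor (Ccn2, overlapping Gm15270) had 528 and 982 CPM against 162.5 and 248.2 CPM (1.79 ± 0.41, adjusted p = 0.454). The kinase anchor Akap12 had 623 and 394 CPM against 200.8 and 44.4 CPM (2.33 ± 0.55, adjusted p = 0.511).

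Mfap5, Ly6a and the 6 genes from Pcolce2 to Akap12 are the 8 of smallest p among genes with higher values that met the limits for naming. None passed in the test as designed. The limits, on direction, CPM, cells and the share of 1 cell, are given with the processing. With the 10 cells holding platelet genes left out, which leaves 3 cells in the pool A sum of the other fibroblasts, 30 genes passed, 23 of them higher, and Mfap5 (adjusted p = 0.0215), Pcolce2 (adjusted p = 0.00196) and Angptl7 (adjusted p = 6.13e-09) were among them. Leaving out the cells that had at least 3 contractile genes at 1000 CPM leaves 4 cells in the pool B sum of the other fibroblasts. There Mfap5 (adjusted p = 0.912) and Pcolce2 (adjusted p = 0.358) did not pass and Angptl7 did (adjusted p = 1.39e-06). Among cells with at least 100000 counts none of these genes passed, with adjusted p = 0.320 for Mfap5, 0.139 for Pcolce2 and 0.0804 for Angptl7.

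**Figure D3:**
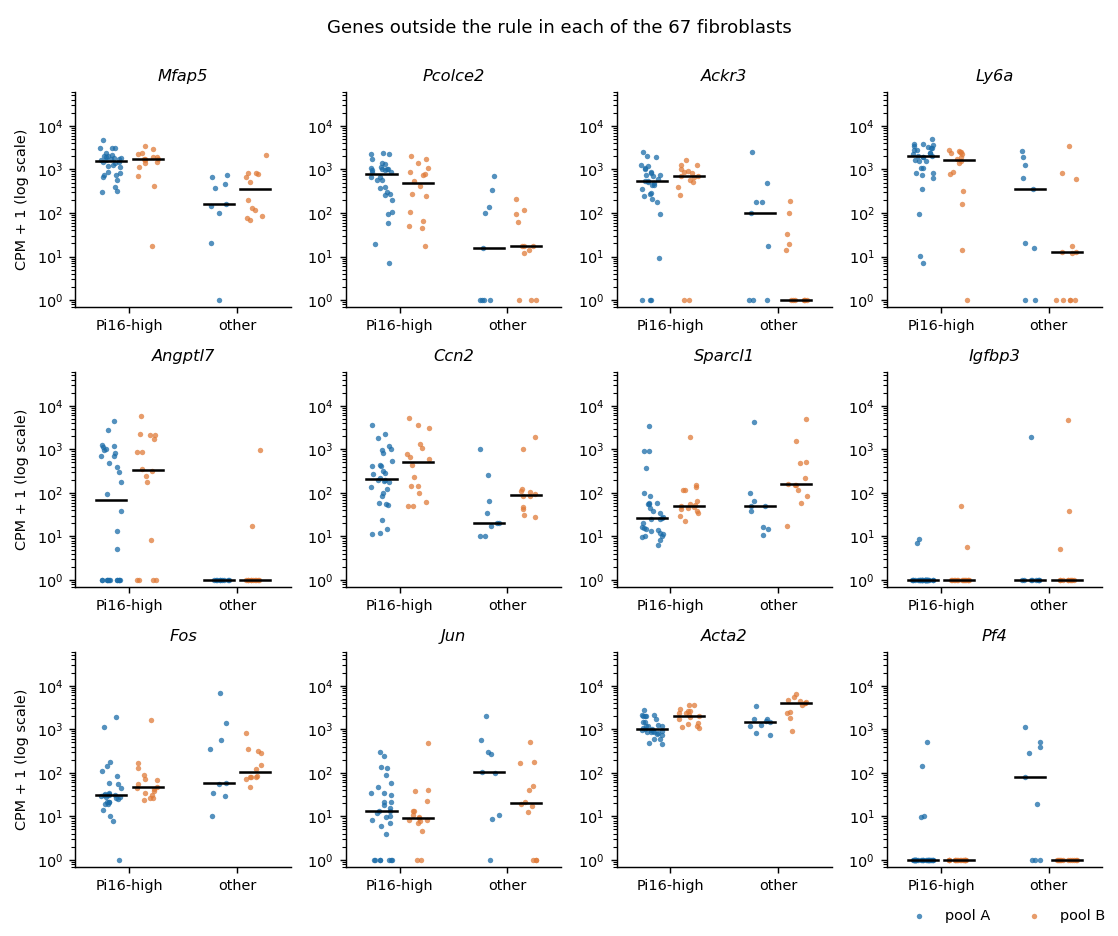
CPM + 1 on a log scale in single cells (points) of 12 genes described in the text, chosen with their values known, Pi16-high cells left of the other fibroblasts, pools by colour and bars at the median of each pool. Pcolce2 reaches 100 CPM in 38 of 46 Pi16-high cells and 5 of 21 others, while Igfbp3 exceeds 100 CPM in 2 of the other fibroblasts and in no Pi16-high cell.

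Of 16 elastic fibre genes tested, 13 had a positive log2 fold change with a median of 0.84, 8 of them at an unadjusted p under 0.05, and none passed. Over all genes the median was 0.18, and 2.82% were higher at that p. Elastin (Eln) had 2959 and 2894 CPM in Pi16-high cells, against 1679 and 1327 CPM in the other fibroblasts (0.92 ± 0.25, adjusted p = 0.808). Mfap4, a microfibril-associated protein, had 3245 and 3228 CPM against 2026 and 1331 CPM (0.93 ± 0.25, adjusted p = 0.808). It did not pass in any of these sets of cells. Fbln1 had 2094 and 2822 CPM against 1659 and 822 CPM (1.01 ± 0.33), and Fbln2 662 and 953 CPM against 425 and 210 CPM (1.36 ± 0.45), both fibulins that bind elastin and fibronectin. Without the cells holding platelet genes the pool sums of Fbln1 overlapped, at 2049 and 2822 CPM against 2647 and 822 CPM (0.71 ± 0.34). The latent TGF-beta binding protein Ltbp4, which takes part in elastic fibre assembly, had 1625 and 2130 CPM against 908 and 1160 CPM (0.81 ± 0.27). Fbln5 (1614 and 1683 CPM against 1705 and 803 CPM), Ltbp1 and Ltbp2 overlapped. The list's median was 1.08 within pool B and 0.40 within pool A.

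On the lower side, Sparcl1, an anti-adhesive matrix protein, had 212.8 and 114.6 CPM in Pi16-high cells, against 737 and 1129 CPM in the other fibroblasts (−2.59 ± 0.45, adjusted p = 0.115). It was at 100 CPM in 9 of 46 and 10 of 21 cells, but the sums of the others rest largely on 1 cell in each pool, at 4208.5 CPM (the next at 96.2 CPM) in pool A and 5056 CPM (the next at 1549 CPM) in pool B. Without the cells holding platelet genes, that pool A cell among them, the values were 125.002 and 114.6 CPM against 26.6 and 1129 CPM (−0.67 ± 0.92). It passed without the cells rich in contractile genes (adjusted p = 0.00262) and among cells with at least 100000 counts (adjusted p = 0.0139). In these sets the pool B sum of the other fibroblasts rests on 4 and 3 cells, and the cells at 4208.5 and 5056 CPM stayed in both. The DNA repair scaffold Xrcc1 had 6.90 and 3.71 CPM against 175.5 and 157.8 CPM (−5.06 ± 1.13, adjusted p = 0.454). The ferrireductase Steap3 had 122.1 and 87.1 CPM against 489 and 343.9 CPM (−2.04 ± 0.52, adjusted p = 0.72), and the microtubule protein Map1b had 303.99 and 108.7 CPM against 787 and 379 CPM (−1.64 ± 0.44, adjusted p = 0.808). The lipid carrier Apoe had 1035 and 1865 CPM against 2312 and 2783 CPM (−0.92 ± 0.26), with 33 of 46 and 19 of 21 cells at 100 CPM. Aarsd1 (−4.18 ± 0.95) overlaps Gm27029 on the same strand and is therefore uncertain. Aarsd1, Zbtb4 (−2.20 ± 0.57) and Ndrg2 (−1.75 ± 0.47) were also among the 8 of smallest p that met the limits for naming.

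Immediate early and stress genes, which cells switch on within minutes of a stimulus such as tissue digestion, had a median log2 fold change of −0.88 over 28 genes, 7 of them positive, with 4 at an unadjusted p under 0.05 (all lower) and none past the adjusted threshold. Of all genes tested, 1.6% were lower at that unadjusted p. Fos had 120 and 152.4 CPM in Pi16-high cells, against 1479 and 292.6 CPM in the other fibroblasts (−2.34 ± 0.60, adjusted p = 0.72). Jun, its partner in AP-1, had 44.2 and 41.2 CPM against 479 and 151.7 CPM (−2.71 ± 0.70, adjusted p = 0.72). In pool A, 1 of the 9 other fibroblasts had 6794.5 CPM of Fos and 2063 CPM of Jun, and the next cells had 1400 CPM of Fos and 580 CPM of Jun. With the 10 cells holding platelet genes left out, that cell among them, Fos had 133.1 and 152.4 CPM against 116.9 and 292.6 CPM, and the list's median was −0.08, against 0.59 over all genes. Jun then had 36.99 and 41.2 CPM against 271.1 and 151.7 CPM. Among Pi16-high cells of pool A, median Fos was 21.6 CPM in the 4 cells with platelet genes and 29.7 CPM in the 26 without. Among the other fibroblasts of pool A it was 201.4 CPM in the 6 cells with platelet genes and 33.8 CPM in the 3 without. These differences were not tested.

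Contractile genes had a median of −0.63 over 19 genes, 2 of them positive, with 1 at an unadjusted p under 0.05 and none past the adjusted threshold. That gene was lower, as were 1.6% of all genes at the same unadjusted p. At least 3 contractile genes reached 1000 CPM in 1 of 46 Pi16-high cells and 10 of 21 other fibroblasts. Without these cells the list's median was −0.02, against 0.52 over all genes. The cells were chosen by genes of this same list, so part of that change is fixed by the choice. Among cells with at least 100000 counts the list's median was −0.08, against 0.56 over all genes. Fibrillar collagens (median 0.16 over 14 genes), small leucine-rich proteoglycans (−0.02 over 8), basement membrane genes (0.10 over 19) and Col15a1-type fibroblast genes (−0.06 over 18) lay near the median of all genes, and none of their members passed. Collagen processing enzymes had a median of 0.63 over 17 genes, and antigen presentation and interferon genes 0.55 over 16, again without a call. Complement genes (0.25 over 12), growth factors (0.06 over 21), Wnt genes (0.31 over 18) and mesenchymal transcription factors (0.29 over 34) were spread to both sides. The other 11 lists, from matricellular proteins to adhesion receptors, had medians between −0.28 and 0.49, and Igfbp3 was their 1 call.

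**Figure D4:**
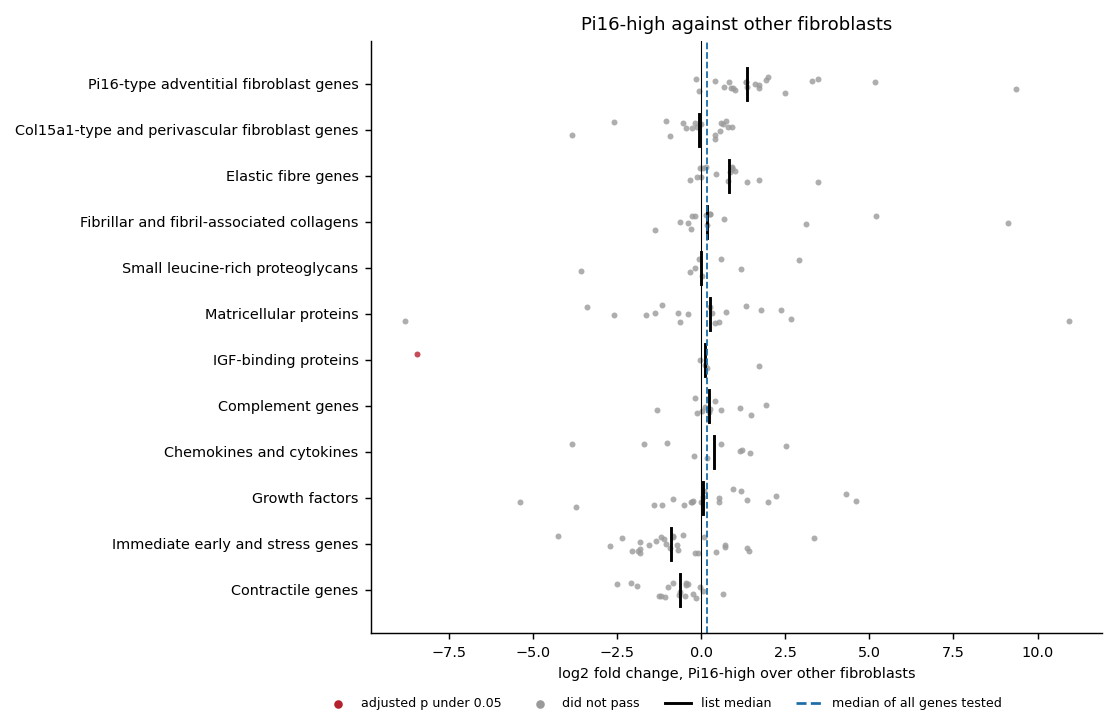
log2 fold change of each listed gene in Pi16-high over other fibroblasts, 1 row for each of 12 of the 25 gene lists, with the list's median as a bar and the median of all genes (0.18) as a dashed line. Pi16-type genes have a median of 1.38 and immediate early genes of −0.88, and the only listed gene that passed is Igfbp3.

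Against the 563 smooth muscle cells, 1211 of 16970 genes outside the rule passed (7.14%), 671 of them higher in the fibroblasts (3.95%) and 540 lower (3.18%), and the median over all genes was −0.29. Of the called genes, those named here had adjusted p-values of at most 0.05 by edgeR's quasi-likelihood test, and values are given as sums of pool A and pool B. The fibroblasts had fewer counts per cell, and both classes were set by marker genes, so genes that go with those markers differ through that choice.

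Lists of matrix genes differed in how many members passed. Of 14 collagens tested, 12 rose and none fell; Col14a1, a fibril-associated collagen, had 1403 and 1129 CPM in fibroblasts, against 90.7 and 101.7 CPM in smooth muscle cells (log2 fold change 3.79 ± 0.25). Pcolce, the relative of Pcolce2, had 1950 and 2186 CPM against 77.3 and 72.02 CPM (4.87 ± 0.25). Of 16 elastic fibre genes, 10 rose, among them Fbln1 at 2009 and 2169 CPM against 10.6 and 25.3 CPM (7.07 ± 0.35). Elastin did not pass, at 2709 and 2383 CPM against 2681 and 1976 CPM (0.22 ± 0.19). Of 10 small leucine-rich proteoglycans, 6 rose, and Fmod had 799 and 443 CPM against 1.43 and 0.694 CPM (9.29 ± 0.36), whereas Bgn overlapped at 4827 and 6638 CPM against 5004 and 4802 CPM (0.29 ± 0.20).

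Of 14 complement genes tested, 10 rose. C3, the central component, had 1090 and 838 CPM in fibroblasts, against 0.889 and 1.07 CPM in smooth muscle cells (10.01 ± 0.36), with 41 of 67 and 0 of 563 cells at 100 CPM. C7, a part of the membrane attack complex, had 495 and 305.1 CPM against 0.362 and 0.341 CPM (10.18 ± 0.43). The regulator Serping1 also rose (3.16 ± 0.21), while the attack complex inhibitor Cd59a fell, at 21.3 and 57.7 CPM against 146.4 and 158.8 CPM (−2.04 ± 0.45). Of 15 chemokines and cytokines, 8 rose and none fell, with Il33 at 275.3 and 285.1 CPM against 6.61 and 1.55 CPM (6.51 ± 0.61) and Cxcl12 at 760 and 526 CPM against 87.6 and 100.99 CPM (2.83 ± 0.28).

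Growth factor genes rose in 9 of 27 cases and fell in 2. Igf1 had 783 and 857 CPM in fibroblasts, against 2.63 and 5.45 CPM in smooth muscle cells (7.83 ± 0.37), and its carriers differed among themselves: Igfbp4 had 3165 and 3318 CPM against 158.1 and 312.7 CPM (3.94 ± 0.27), while Igfbp2 fell, at 1.20 and 2.75 CPM against 44.2 and 63.8 CPM (−4.78 ± 0.89). The hedgehog pathway's transcription factor Gli1 rose, at 117.5 and 117.2 CPM against 4.92 and 2.25 CPM (5.21 ± 0.58), as did the receptor Ptch1, at 77.7 and 178.1 CPM against 15.4 and 5.78 CPM (3.72 ± 0.70). Of 21 Wnt pathway genes, 7 rose, among them Wnt5a (4.97 ± 0.50) and the antagonist Sfrp1 (5.32 ± 0.50). The antagonist Wif1 fell, at 3.60 and 16.99 CPM against 137.9 and 207.3 CPM (−4.32 ± 0.54).

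Mesenchymal transcription factors rose in 14 of 38 cases and fell in none. Hic1, a repressor that marks quiescent mesenchymal progenitors in mice, had 159.2 and 105.9 CPM in fibroblasts, against 0.165 and 0.2 CPM in smooth muscle cells (9.54 ± 0.64). Tcf21, an epicardial and fibroblast factor, had 5.70 and 194.4 CPM against 0 and 3.95 CPM (6.77 ± 0.96), so the pools differed widely. None of 18 Hox genes passed in this test, 1 of them lower at an unadjusted p under 0.05, where 12.6% of all genes were lower and 8.2% higher. Of 36 genes for lipid, retinoid and steroid handling, 17 rose and 2 fell; the transporter Abca8a had 1255 and 1055 CPM against 1.19 and 1.71 CPM (9.73 ± 0.36, uncertain because of its close copy Abca8b), and Hsd11b1, which activates glucocorticoids, had 298.5 and 555 CPM against 1.30 and 0.706 CPM (8.79 ± 0.56).

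Of 21 genes tested from the Pi16-type list, 12 rose and 3 fell, with Ly6a at 1657 and 1170 CPM in fibroblasts, against 15.1 and 6.33 CPM in smooth muscle cells (7.23 ± 0.33), and Cd34 at 1219 and 931 CPM against 13.7 and 24.6 CPM (5.93 ± 0.36). Of 18 Col15a1-type genes, 12 rose and 2 fell, and cytoglobin (Cygb, overlapping Prcd on the other strand) had 1398 and 1202 CPM against 3.99 and 1.72 CPM (9.02 ± 0.39). Col15a1 itself did not pass (0.97 ± 0.28, adjusted p = 0.0791). Among TGF-beta and BMP genes, 7 of 30 rose and 4 fell; the ligand Gdf10 had 1402 and 1191 CPM against 26.2 and 13.9 CPM (6.16 ± 0.31), and the inhibitor of BMPs and activins Fst rose (3.79 ± 0.63), while the activin subunit Inhba fell (−2.61 ± 0.57). Adhesion receptors split, with 7 of 31 higher and 11 lower. The surface glycoprotein Thy1 had 211.8 and 135.2 CPM in fibroblasts, against 1.27 and 1.06 CPM in smooth muscle cells (7.26 ± 0.49).

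The remaining lists held both directions or few calls. Collagen processing enzymes rose in 7 of 17 cases, matricellular proteins in 10 of 21 with 4 lower, and metalloproteinases and inhibitors in 6 of 18 with 1 lower, Mmp2 among the higher at 975 and 1527 CPM in fibroblasts, against 50.7 and 115.2 CPM in smooth muscle cells (4.07 ± 0.26). IGF-binding proteins rose in 4 of 6 cases with 1 lower, and growth factor receptors in 7 of 22 with 1 lower. Hedgehog and Notch genes rose in 6 of 17 cases with 1 lower, vasoactive and neural receptors in 5 of 33 with 3 lower, antigen presentation and interferon genes in 6 of 21 with none lower, and basement membrane genes in 5 of 19 with 3 lower.

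The highest fold changes among genes past the expression limits also included Vipr2, a receptor for vasoactive intestinal peptide, at 105.5 and 105.2 CPM against 0.0878 and 0.0823 CPM (10.31 ± 0.73, 15 of 67 and 0 of 563 cells at 100 CPM). Dio2, which activates thyroid hormone, had 440 and 216.6 CPM against 0.406 and 0.294 CPM (9.88 ± 0.45), and the tetraspanin Tspan11 had 601 and 753 CPM against 0.483 and 0.9998 CPM (9.98 ± 0.39). Aldh1a2, which makes retinoic acid, had 64.5 and 21.99 CPM against 0.0549 and 0.0118 CPM (10.37 ± 1.30), but from 5 fibroblasts at 100 CPM.

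Among listed genes that fell, contractile genes were the most numerous. That list fell in 19 of 20 cases, which describes the class because Myh11 was used to set it; Acta2 still had 1143 and 2255 CPM in fibroblasts, against 6678 and 5750 CPM in smooth muscle cells (−1.87 ± 0.29). The coactivator Myocd, which drives smooth muscle genes, had 7.80 and 44.97 CPM against 434 and 833 CPM (−4.89 ± 0.43). The matricellular Postn fell, at 48.6 and 310 CPM against 1477 and 2383 CPM (−3.85 ± 0.45), as did Ccn3 (−3.76 ± 0.30), the adhesion molecule Mcam (−4.94 ± 0.43) and the basement membrane protein Npnt (−4.76 ± 0.43). Of 32 immediate early and stress genes, 8 fell and 1 rose, with Fos at 386 and 198.1 CPM against 1116 and 874 CPM (−1.76 ± 0.24).

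**Figure D5:**
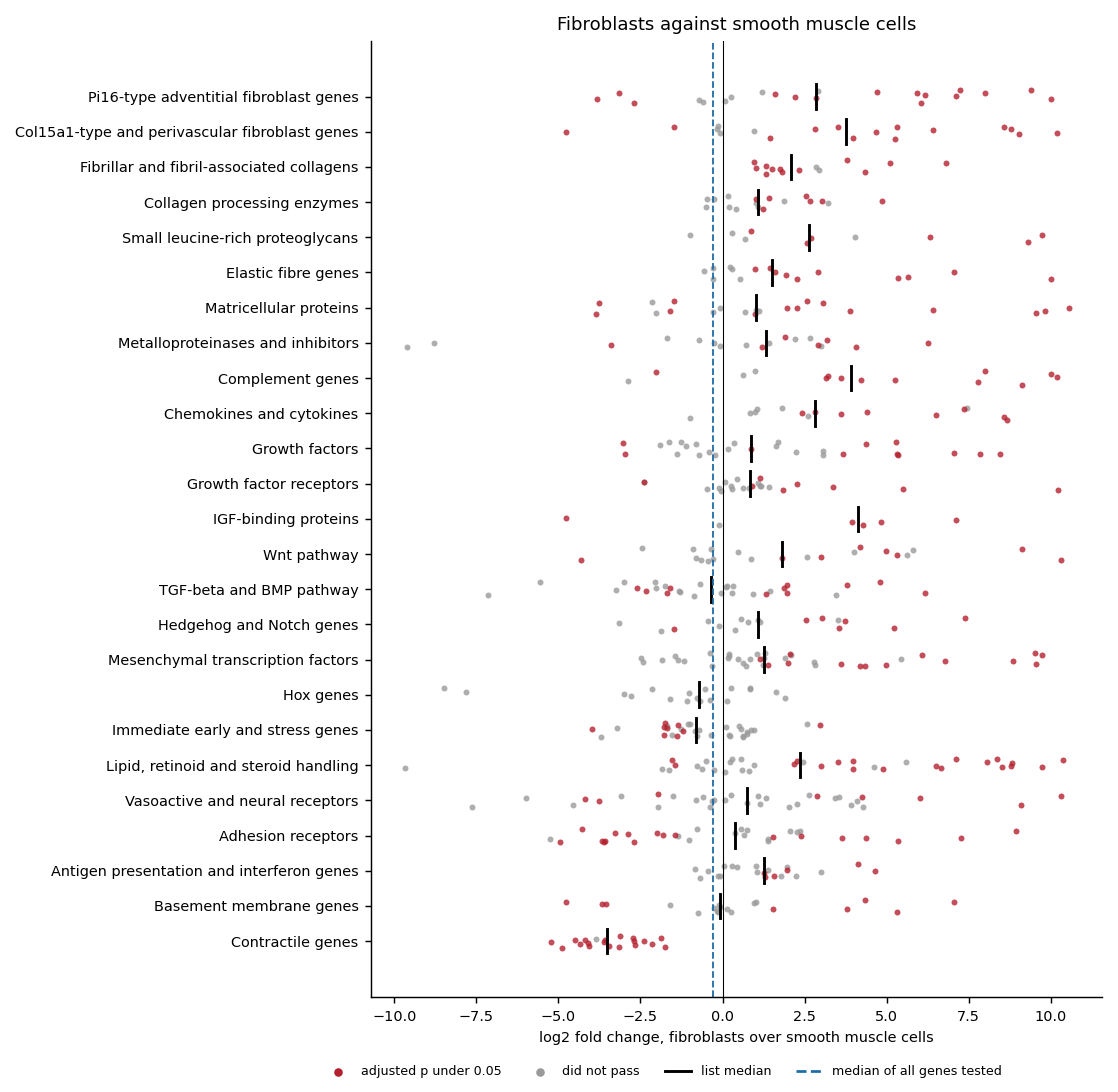
log2 fold change of each listed gene in fibroblasts over smooth muscle cells, 1 row for each of the 25 gene lists, with genes that passed in red, the list's median as a bar and the median of all genes (−0.29) as a dashed line. Collagens lie to the right (12 of 14 higher), contractile genes to the left (19 of 20 lower), and Hox genes hold no call.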

How the data were processed

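Single-cell libraries of 675 aortic cells were deposited by the authors as counts per gene, not normalized. Per the submitters' processing notes, bcl2fastq, Bowtie, Bowtie2, Subread and featureCounts were used with GRCm38/mm10. The sources used here do not give versions, duplicate removal or the use of strand. Of 46517 gene IDs, 512 had no symbol in GENCODE M21 and held 0.217% of counts; they stayed out of the tests. No library shared a column with another, since each cell had its own well; doublets were not called.

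CPM were computed from the column totals. The cells of a class were summed per pool, and edgeR 4.0.16 (R 4.3.3) fitted pool as a block with TMM factors, filterByExpr, a quasi-likelihood test and Benjamini-Hochberg adjustment at 0.05. The standard error is the log2 fold change over the root of F. The fit leaves 1 residual degree of freedom. Both classes come from the same mice and plate within a pool, so pools pair them; the pool differences of the classes correlated at 0.095 (Pi16 split) and 0.309 (smooth muscle) across genes. The block takes up the difference between the pools. The p-values therefore rest on how far the difference between classes varies across these 2 pools of mice, with that spread estimated partly from all genes together. DESeq2 1.42.0 and limma 3.58.1 gave alternatives. The tests were tested on simulated counts. Shares have exact Clopper-Pearson intervals, which cover counting error only. Python 3.11.15 with numpy 2.4.6, pandas 2.3.3, scipy 1.17.1 and matplotlib 3.10.9 was used for the rest.

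Named genes were up to 4 called genes per list by size and the 12 largest fold changes each way. Where too few passed, the 8 of smallest p each way were added. All of these had the same direction in both pools and at least 20 CPM in both pools of the higher class. They also had at least 5 cells of that class at 100 CPM and no cell holding over 50% of its counts. Other listed genes were named to describe their lists and were chosen after their values were seen. The rule, its members and the 25 gene lists were chosen with earlier results of these data known. RefSeq promoters were available for 6 of 9 genes looked for.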

Additional observations from a re-analysis of the deposited data

How the results depend on the processing

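For Pi16-high against other fibroblasts, where 1 gene passed, the count was 74 with DESeq2, 25 without a filter on low counts, 22 with equal weight per cell in limma, 3 among cells with at least 100000 counts, and 3 at a Pi16 threshold of 50 CPM. It was 0 at a threshold of 200 CPM (378 at an unadjusted p under 0.05), 0 with at least 4 of 7 markers (440) and 0 with no replicate block (549). Chosen after seeing the data, leaving out cells with at least 3 contractile genes at 1000 CPM gave 3, and leaving out cells with Pf4 or Ppbp gave 30; without the latter, Ndrg2 reversed to a log2 fold change of 1.07. RLE size factors, and markers counted without Pi16, gave 1 again. Igfbp3 passed in 7 of the 10 alternatives that tested it. Its sums in the other fibroblasts rest on 2 cells, and these 10 alternatives kept both. The settings that drop 1 of them, without platelet genes or with at least 100000 counts, left Igfbp3 untested. The count therefore cannot show how far the call depends on those cells.

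Against smooth muscle cells, where 1211 passed, the count was 2577 with DESeq2, 2487 with equal weight per cell (976 higher, 1511 lower), and 670 with no replicate block; without a filter 638 were higher and 741 lower. Counting the setting without a filter, 5 alternatives stayed within 1.5 times the main count. Of 864 alternative tests of the named genes, 822 passed, none with the opposite sign. The cause of these differences was not tested. Leaving out 1 pool left no residual degrees of freedom and so gave values without a test; the median of Pi16-type genes was then 1.01 to 1.31. Leaving out every fibroblast with 3 contractile or endothelial genes at 100 CPM left no cells and gave no value. Precision is limited by 2 pools and by 9 and 12 Pi16-low cells.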

Other observations

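The potassium channel subunits Abcc9 and Kcnj8, used as pericyte markers, were present in both fibroblast groups. Abcc9 summed to 520 CPM for pool A and 758 CPM for pool B in Pi16-high cells, against 270.6 and 858 CPM in the other fibroblasts, and to 257.3 and 284.1 CPM in smooth muscle cells. Kcnj8 had 57.2 and 231.4 CPM in Pi16-high cells, against 74.3 and 232.8 CPM in the other fibroblasts, so its sums were higher in pool B in both groups. The other pericyte markers Cspg4 (14.5 and 12.98 CPM in Pi16-high cells, against 19.2 and 40.6 CPM in the others) and Higd1b (0.373 and 0.371 CPM, against 0 and 0 CPM) were low. S100b, listed for Schwann cells, had 39.5 and 47.5 CPM in Pi16-high cells, against 3.07 and 76.6 CPM in the other fibroblasts, while Sox10 was at 0 in both.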
